A study of Mus musculus with 6 samples.

Results

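The feedback regulators of SMAD signalling followed in mouse intestinal organoids were Pmepa1, Ldlrad4, Skil, Ski, Tgif1, Smurf1, Smurf2 and Bambi. These genes were chosen by name as SMAD corepressors, ubiquitin ligases and feedback inhibitors and were found through their Ensembl gene identifiers. The rule uses no measured value, but the choice was made with earlier results of these data known, so it is no independent evidence. All 8 of the 8 were found among the 31227 genes of the count table, and all 8 passed the filter on low counts, which left 15503 genes for testing. Bulk RNA was sequenced from 6 libraries, 2 per group: Smad4 KO organoids given 0.5 nM TGF-β (TGF-β-treated Smad4 KO), Smad4 KO organoids without added TGF-β, and wild-type (WT) organoids. Every title carries 48 h, and the treatment text can also be read as 48 h of TGF-β followed by 2 further days, so time in culture and TGF-β cannot be told apart. All groups grew in the same medium with EGF, R-spondin1 and Noggin. Noggin is itself a secreted blocker of BMP ligands. How Smad4 was inactivated, whether the groups share a line, and whether replicates are separate cultures were not given in the sources used here, so p-values measure only the spread between these libraries, which may be technical.

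TGF-β family ligands bind paired receptor kinases that phosphorylate receptor-regulated SMADs, which join Smad4 and enter the nucleus to switch genes on or off. The pathway limits itself at each level: pseudoreceptors and membrane adaptors act at the receptor, HECT-type ubiquitin ligases mark receptors and SMADs for destruction, and corepressors sit on the SMAD complex in the nucleus. Several of these brakes are induced by the signal they restrain. In intestinal epithelium TGF-β restrains growth, and loss of SMAD4 is frequent in colorectal cancer.

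Values are TMM-scaled counts per 1e6 counts (CPM), fold changes and adjusted p-values come from edgeR's quasi-likelihood test, and a gene passed at an adjusted p under 0.05 (Benjamini-Hochberg over all genes tested). Libraries held 40.55 to 50.7 M units (M, 1e6), about 10.1 to 12.7 M fragments if 1 fragment adds 4 units. Smad4 itself was at 25.2 and 29.5 CPM in TGF-β-treated Smad4 KO, at 21.7 and 23.1 CPM in Smad4 KO, and at 99.4 and 109 CPM in WT, so the knockout labels matched the counts, although a count over the whole gene does not show a deleted part. The epithelial identity of the cultures was checked with 11 markers such as Epcam and Vil1, whose summed level was 15200 and 15300 CPM in TGF-β-treated Smad4 KO, 11200 and 11340 CPM in Smad4 KO, and 7994 and 8135 CPM in WT. Krt8 was the largest part of this sum, at 5194 and 5070 CPM in TGF-β-treated Smad4 KO and 2217 and 2210 CPM in WT. Epcam was at 1510 and 1487 against 1088 and 1102 CPM, and Cdx2 at 186.5 and 195.5 against 209 and 202.6 CPM. Of the 11 markers, 8 passed as higher and 1 as lower in treated organoids against WT. The sum therefore does not compare how epithelial the groups were. Of 9 fibroblast markers, Col1a2, Col3a1, Dcn and Lum were at 0 in every library, and the list summed to 3.73 and 6.34 CPM in TGF-β-treated Smad4 KO, 7.53 and 7.90 CPM in Smad4 KO, and 18.1 and 18.3 CPM in WT. Most of this sum was Vim, at 3.24 and 5.65, 5.60 and 6.57, and 16.6 and 15.9 CPM in the same order, so it mainly follows 1 gene. Endothelial (6 genes) and leukocyte (8 genes) markers summed to at most 2.01 and 6.59 CPM in any library, with Cdh5, Emcn, Kdr and Adgre1 at 0 throughout. Epithelial lineages differed between the groups: 10 enterocyte markers summed to 10440 to 10490 CPM with TGF-β, 17000 to 17230 CPM in Smad4 KO and 5390 to 5423 CPM in WT, 8 crypt base stem cell markers to 2845 to 2877, 4283 to 4335 and 7217 to 7265 CPM in the same order, and 8 Paneth cell markers to 3169 to 3253, 3134 to 3293 and 7980 to 8007 CPM. In that order, 8 goblet cell markers summed to 1920 to 1933, 3697 to 3806 and 4625 to 4630 CPM, 9 enteroendocrine markers to 396 to 412, 416 to 432 and 1033 to 1040 CPM, and 8 cycling cell markers to at most 1486, 1563 and 2213 CPM. The 6 tuft cell markers summed to at most 21.5 CPM. These shifts move with the groups compared, and their part in the results on the feedback regulators was not tested.

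**Figure D1:**
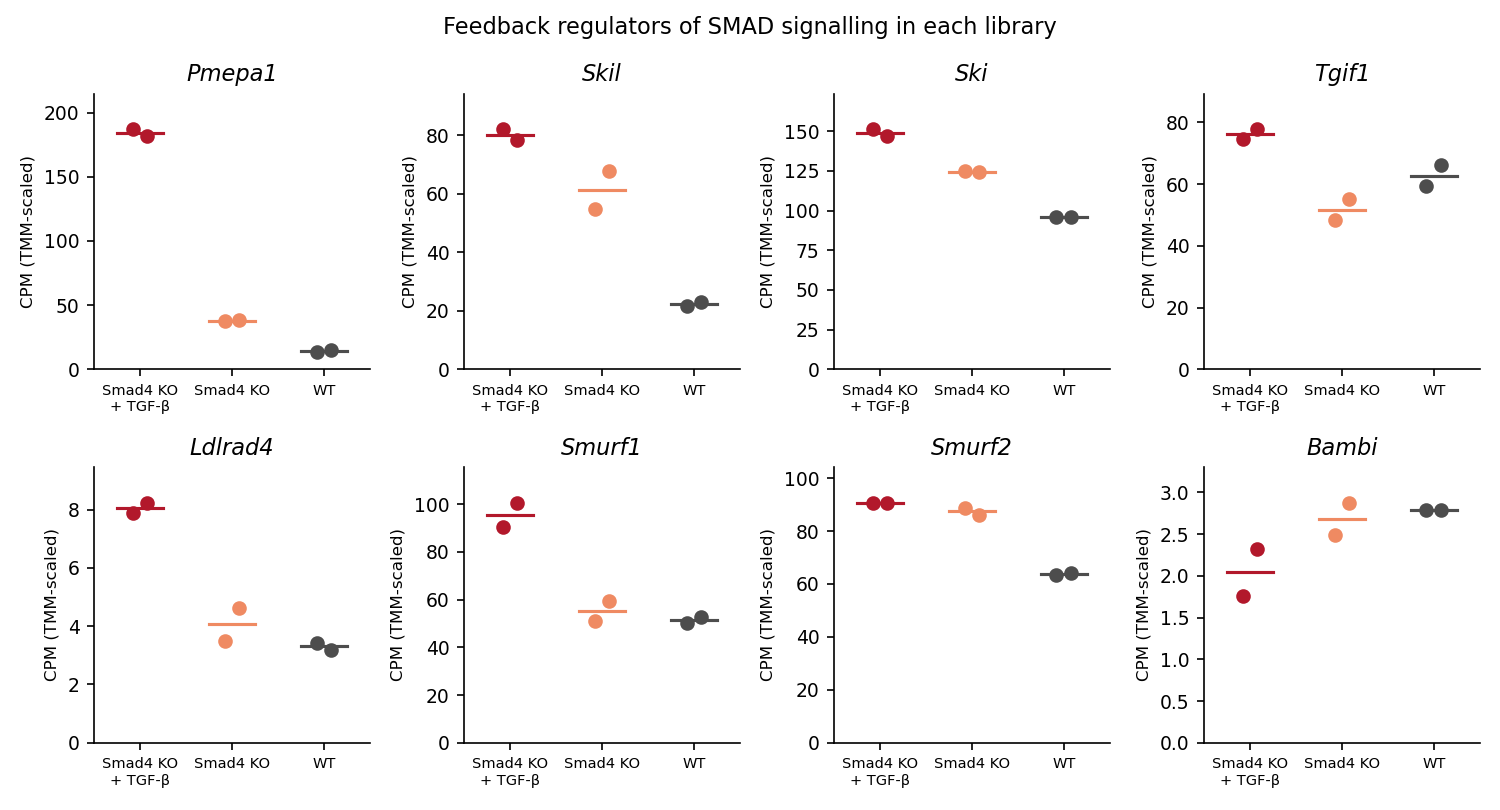
Level of each feedback regulator in TMM-scaled CPM (vertical axis, linear from 0, own scale per panel) in TGF-β-treated Smad4 KO, Smad4 KO and WT organoids; points are the 2 libraries of a group and bars their mean. Pmepa1 averages 184 CPM with TGF-β, against 37.9 CPM in Smad4 KO without it and 14.3 CPM in WT, while Bambi stays under 3 CPM throughout.

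With TGF-β added to Smad4 KO organoids, 5 of the 8 genes rose and 0 fell: Pmepa1, Ldlrad4, Ski, Tgif1 and Smurf1. Skil, Smurf2 and Bambi did not pass. Among all genes tested, 7.78% passed as higher and 8.48% as lower in this comparison. The median log2 fold change of the 8 genes was 0.47, beside -0.01 over all 15503 genes tested. The calls of Ski, Tgif1 and Ldlrad4 depended on the libraries compared, that of Ski on each of the 4. Those of Pmepa1 and Smurf1 did not. Leaving out 1 library gave log2 fold changes of 0.24 to 0.27 for Ski, 0.47 to 0.65 for Tgif1 and 0.80 to 1.21 for Ldlrad4. For Skil they ran from 0.24 to 0.55 and for Smurf1 from 0.68 to 0.90. In bulk RNA a lower or higher level can reflect a changed number of cells of one type or a changed amount of RNA per cell, and these cannot be told apart.

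In Smad4 KO against WT organoids, without added TGF-β, 4 of the 8 genes rose and 0 fell: Pmepa1, Skil, Ski and Smurf2. Among all genes tested 16.9% passed as higher and 13.4% as lower, and the median log2 fold change was 0.34 for the 8 genes and -0.02 over all genes tested. This comparison shares the Smad4 KO libraries with the one above, so a high or low value there enters both with opposite sign. TGF-β-treated Smad4 KO organoids were also set against WT, where 6 of the 8 genes rose (Pmepa1, Ldlrad4, Skil, Ski, Smurf1 and Smurf2) and 0 fell, beside 20.7% higher and 19% lower among all genes tested. That comparison changes Smad4 and TGF-β together and shares libraries with both of the others. None of the 6 libraries is from WT organoids given TGF-β, so the response of WT to TGF-β was not measured. Summed over the 8 genes, the level was 685 and 686 CPM in TGF-β-treated Smad4 KO, 412 and 438 CPM in Smad4 KO, and 310 and 323 CPM in WT. Of this sum Pmepa1 was 187 and 182, 37.6 and 38.2, and 13.8 and 14.8 CPM in the same order. Much of the rise with TGF-β is therefore 1 gene.

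**Figure D2:**
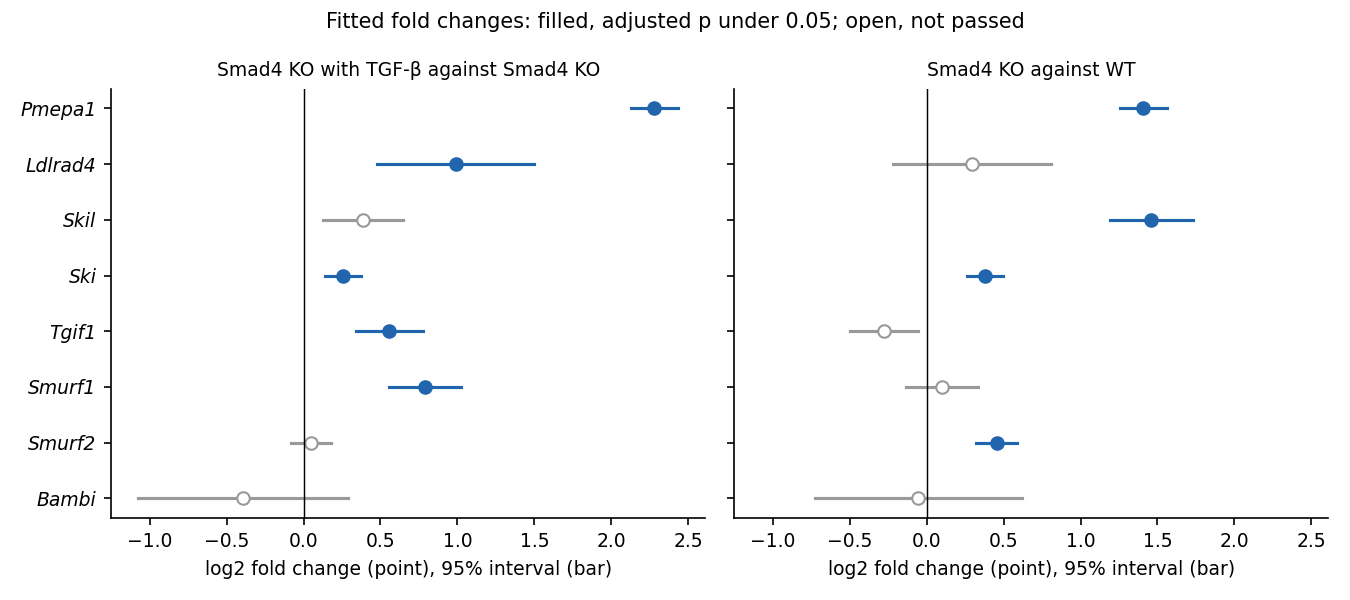
Fitted log2 fold change (horizontal axis) of each feedback regulator with its 95% interval, for TGF-β-treated Smad4 KO against Smad4 KO on the left and Smad4 KO against WT on the right; filled points passed at an adjusted p under 0.05. Pmepa1 has the highest point on the left (2.28), Skil (1.46) and Pmepa1 (1.41) the highest on the right, and the wide bars of Bambi and Ldlrad4 go with their low counts.

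The membrane adaptors Pmepa1 and Ldlrad4 are relatives that bind receptor-regulated SMADs at membranes and keep them from the receptor. Pmepa1 (ENSMUSG00000038400, GRCm38, chromosome 2, 173224458 to 173276533, minus strand) was at 187 and 182 CPM in TGF-β-treated Smad4 KO, at 37.6 and 38.2 CPM in Smad4 KO, and at 13.8 and 14.8 CPM in WT. The 3 groups did not overlap, and libraries of one group differed by far less than the groups did. Pmepa1 was 4.86-fold higher with TGF-β than in untreated Smad4 KO (log2 fold change 2.28 ± 0.06 SE, n = 2 per group, adjusted p = 1.34e-05 in edgeR). It was also 2.66-fold higher in Smad4 KO compared with WT (log2 fold change 1.41 ± 0.06 SE, adjusted p = 2.32e-05), and 12.9-fold higher in TGF-β-treated Smad4 KO compared with WT (adjusted p = 5.52e-07). All 14 alternative fits called it higher in each comparison, with log2 fold changes of 2.26 to 2.33 for TGF-β against untreated Smad4 KO.

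Ldlrad4 (ENSMUSG00000024544, chromosome 18, 67933257 to 68268630, plus strand) was at 7.89 and 8.23 CPM in TGF-β-treated Smad4 KO, at 3.49 and 4.63 CPM in Smad4 KO, and at 3.44 and 3.17 CPM in WT, so the treated libraries stood apart from both other groups. The treated group rests on about 176 fragments, the Smad4 KO group on about 81 and WT on about 80. Ldlrad4 was 1.98-fold higher with TGF-β (95% interval 1.39 to 2.83, adjusted p = 0.0242), and its ratio of Smad4 KO to WT was 1.23 (0.860 to 1.75, adjusted p = 0.346). The first call was lost without TGF-β-treated Smad4 KO replicate 1 (adjusted p = 0.0912), without TGF-β-treated Smad4 KO replicate 2 (0.113) and without Smad4 KO replicate 1 (0.0931). Its exons overlap those of Fam210a, a gene on the opposite strand, over 52.1% of their length, and the strand setting of the counts is unknown, so reads of both genes could be mixed. Fam210a moved the other way with TGF-β, at 97.5 and 86.7 CPM in TGF-β-treated Smad4 KO against 120 and 125 CPM in Smad4 KO (ratio 0.751, adjusted p = 0.00967).

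The nuclear corepressors Skil (also called SnoN) and Ski are paralogs that bind SMAD complexes and bring in histone deacetylases, and SnoN is known both to be degraded on TGF-β stimulation and to be transcribed anew afterwards. Skil (ENSMUSG00000027660, chromosome 3, 31095058 to 31122577, plus strand) was at 81.9 and 78.5 CPM in TGF-β-treated Smad4 KO, at 54.9 and 67.8 CPM in Smad4 KO, and at 21.8 and 22.9 CPM in WT. Both Smad4 KO libraries stood well above WT, while the distance from treated to untreated libraries was similar to the distance between the untreated ones. Skil was 2.75-fold higher in Smad4 KO compared with WT (log2 fold change 1.46 ± 0.11 SE, adjusted p = 0.000227). Its ratio of TGF-β-treated to untreated Smad4 KO was 1.31 (95% interval 1.09 to 1.57), which did not pass (adjusted p = 0.0607), although it passed in 5 of 14 alternative fits, among them DESeq2 (0.0111) and the fit without Smad4 KO replicate 2 (0.0218). Against WT, TGF-β-treated organoids had 3.59-fold more Skil (adjusted p = 5.27e-05).

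Ski (ENSMUSG00000029050, chromosome 4, 155154075 to 155222592, minus strand) was at 151 and 147 CPM in TGF-β-treated Smad4 KO, at 125 and 124 CPM in Smad4 KO, and at 95.7 and 96.0 CPM in WT, in 3 tight groups without overlap. It was 1.2-fold higher with TGF-β (log2 fold change 0.26 ± 0.05 SE, adjusted p = 0.0144) and 1.3-fold higher in Smad4 KO compared with WT (0.38 ± 0.05 SE, adjusted p = 0.00184). The first call was lost without any 1 of the 4 libraries compared, with an adjusted p of 0.0952 and 0.0649 without TGF-β-treated Smad4 KO replicates 1 and 2, and of 0.0567 and 0.0698 without Smad4 KO replicates 1 and 2. Ski is shown with the sequence before its start because it is the 1 gene with a rise in both comparisons whose entry is in the RefSeq promoter table. The stretch is 193 bases on chr4:155222593-155222785, minus strand, GRCm38.p6, ending just before the more upstream of the RefSeq and GENCODE starts. Capitals mark GGCGC or its reverse complement, a GC-rich word that SMAD proteins can bind.
Ski: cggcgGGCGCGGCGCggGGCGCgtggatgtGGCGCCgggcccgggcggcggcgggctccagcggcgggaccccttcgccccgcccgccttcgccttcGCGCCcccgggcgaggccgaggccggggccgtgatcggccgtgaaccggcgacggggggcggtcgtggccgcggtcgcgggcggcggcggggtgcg
GGCGC occurs 6 times here on either strand, counting overlapping matches, in a stretch of which 86.5% of bases are G or C, and 7 times in the full 250 bases before the RefSeq start. At least 1 GGCGC lies in 32% of 32851 such 250-base windows. The other words searched, CAGAC (in 42.2% of windows) and GTCTAGAC (in 0.167%) for SMADs, TGANTCA for AP-1 (6.75%) and GGAATG for TEAD factors (12.6%), had 0 matches before Ski.

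The proportion of the paralogs was also compared. Per kb of exon, the ratio of Skil to Ski was 0.311 and 0.307 in TGF-β-treated Smad4 KO, 0.252 and 0.314 in Smad4 KO, and 0.130 and 0.137 in WT. The treated and untreated Smad4 KO libraries overlapped in this ratio and WT lay apart from both. These ratios were not tested.

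Tgif1 (ENSMUSG00000047407, chromosome 17, 70844205 to 70853546, minus strand) encodes a homeodomain protein that binds SMAD complexes and recruits histone deacetylases and CtBP. It was at 74.7 and 77.7 CPM in TGF-β-treated Smad4 KO, at 48.4 and 55.0 CPM in Smad4 KO, and at 59.3 and 66.3 CPM in WT. It was lowest in the untreated Smad4 KO libraries and highest in the treated ones, without overlap. With TGF-β Tgif1 was 1.47-fold higher than in untreated Smad4 KO (log2 fold change 0.56 ± 0.09 SE, adjusted p = 0.00897), a call lost without TGF-β-treated Smad4 KO replicate 2 (0.0555). The log2 fold change of Smad4 KO against WT was -0.28 ± 0.09 SE (adjusted p = 0.0632), and that of TGF-β-treated Smad4 KO against WT was 0.28 ± 0.09 SE (adjusted p = 0.0512). Both lie close to the threshold, and 4 of 14 alternative fits passed the first and 8 of 14 the second.

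The ubiquitin ligases Smurf1 and Smurf2 are close paralogs of the Nedd4 family that mark SMADs and, through the inhibitory Smad7, the receptors for degradation. Smurf1 (ENSMUSG00000038780, chromosome 5, 144876495 to 144965847, minus strand) was at 90.3 and 100.5 CPM in TGF-β-treated Smad4 KO, at 51.1 and 59.4 CPM in Smad4 KO, and at 50.0 and 52.9 CPM in WT. Smad4 KO and WT libraries overlapped and the treated ones lay apart. Smurf1 was 1.73-fold higher with TGF-β (log2 fold change 0.79 ± 0.10 SE, adjusted p = 0.00298), and the ratio of Smad4 KO to WT was 1.07 (95% interval 0.913 to 1.26, adjusted p = 0.475). Without Smad4 KO replicate 2 the log2 fold change of Smad4 KO against WT was -0.01.

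Smurf2 (ENSMUSG00000018363, chromosome 11, 106820066 to 106920715, minus strand) was at 90.5 and 90.6 CPM in TGF-β-treated Smad4 KO, at 88.7 and 86.2 CPM in Smad4 KO, and at 63.4 and 64.2 CPM in WT. Here WT lay apart and the Smad4 KO groups lay close together. Smurf2 was 1.37-fold higher in Smad4 KO compared with WT (log2 fold change 0.46 ± 0.05 SE, adjusted p = 0.00144), and the ratio of TGF-β-treated to untreated Smad4 KO was 1.04 (95% interval 0.945 to 1.13, adjusted p = 0.621). That interval lies below the one of Smurf1 in the same comparison (1.47 to 2.03), and the difference between the paralogs was not tested. Per kb of exon, the ratio of Smurf1 to Smurf2 was 0.971 and 1.08 in TGF-β-treated Smad4 KO, 0.560 and 0.671 in Smad4 KO, and 0.767 and 0.801 in WT, with no overlap between the groups.

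**Figure D3:**
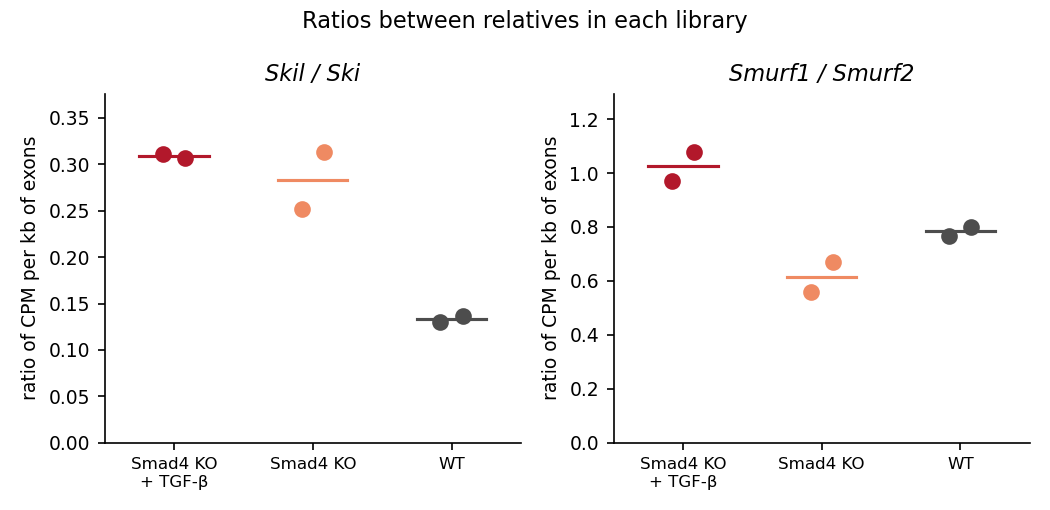
Ratio of CPM per kb of exon (vertical axis, linear from 0) of Skil to Ski on the left and of Smurf1 to Smurf2 on the right in TGF-β-treated Smad4 KO, Smad4 KO and WT organoids; points are libraries and bars group means. The Skil to Ski ratio is 0.130 and 0.137 in WT and at least 0.252 in both other groups, and the Smurf1 to Smurf2 ratio is highest with TGF-β (0.971 and 1.08).

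The sequences before the starts of the ligase paralogs are shown to set a gene that rose with TGF-β beside one that rose in Smad4 KO against WT. This pair was picked after the values were seen. The stretches are chr5:144965900-144966080 for Smurf1 (181 bases) and chr11:106920748-106920965 for Smurf2 (218 bases), both on the minus strand of GRCm38.p6 in RefSeq and end as for Ski. Capitals mark CAGAC or GGCGC on either strand.
Smurf1: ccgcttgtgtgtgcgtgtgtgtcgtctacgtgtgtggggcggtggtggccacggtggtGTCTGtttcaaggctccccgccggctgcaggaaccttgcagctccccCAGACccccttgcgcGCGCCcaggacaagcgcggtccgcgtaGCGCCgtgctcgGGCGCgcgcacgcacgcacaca
Smurf2: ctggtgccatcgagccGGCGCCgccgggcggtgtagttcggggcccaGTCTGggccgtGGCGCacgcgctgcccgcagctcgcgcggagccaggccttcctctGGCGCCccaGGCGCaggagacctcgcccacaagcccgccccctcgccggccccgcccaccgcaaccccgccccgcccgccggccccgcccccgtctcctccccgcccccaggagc
Smurf1 held 2 CAGAC and 3 GGCGC matches in this stretch, and Smurf2 held 1 and 6. In the full 250 bases Smurf1 held 2 and 4, and Smurf2 1 and 6. The stretches differ in length and in their share of G or C (70.2% for Smurf1, 81.2% for Smurf2), so the counts do not set the genes apart. The 5 windows listed for Tgif1 held at most 2 CAGAC and at most 1 GGCGC each. GTCTAGAC, TGANTCA and GGAATG had 0 matches in the 250-base windows of Smurf1 and Smurf2, nor in those of Tgif1. A match is a description of letters, not of binding, and no entry was found in the table for Pmepa1, Skil, Ldlrad4 and Bambi.

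Bambi (ENSMUSG00000024232, chromosome 18, 3507923 to 3516404, plus strand) encodes a receptor-like protein without a kinase domain that blocks receptor complexes, and it is a known target of Wnt signalling. It was at 1.76 and 2.33 CPM in TGF-β-treated Smad4 KO, at 2.49 and 2.87 CPM in Smad4 KO, and at 2.79 and 2.78 CPM in WT. The treated libraries were the lowest, by a margin smaller than the spread between them. The groups rest on about 44, 54 and 67 fragments. The ratio was 0.761 for TGF-β-treated against untreated Smad4 KO (95% interval 0.475 to 1.22, adjusted p = 0.425) and 0.964 for Smad4 KO against WT (0.604 to 1.54, adjusted p = 0.912), and changes inside these intervals were not detectable at this depth.

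Set against WT, TGF-β-treated Smad4 KO organoids had 1.55-fold more Ski (adjusted p = 0.000132), 1.85-fold more Smurf1 (0.000654) and 1.42-fold more Smurf2 (0.000625), all in edgeR. Ldlrad4 was 2.44-fold higher in that comparison (95% interval 1.71 to 3.48, adjusted p = 0.00395). For Bambi the ratio was 0.733 (0.458 to 1.17, adjusted p = 0.258). Per kb of exon, the ratio of Pmepa1 to its relative Ldlrad4 was 25.9 and 24.1 in TGF-β-treated Smad4 KO, 11.8 and 9.02 in Smad4 KO, and 4.39 and 5.10 in WT, without overlap between the groups and with the low counts of Ldlrad4 behind it.

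The order of the genes by level was compared per kb of exon. With TGF-β Pmepa1 was first (37.5 CPM per kb), followed by Ski (26.8), Smurf1 (15.1), Smurf2 (14.7), Tgif1 (13.5), Skil (8.27), Ldlrad4 (1.5) and Bambi (0.402), and the libraries of Smurf1 and Smurf2 overlapped. In Smad4 KO Ski was first (22.4 CPM per kb), followed by Smurf2 (14.2), Tgif1 (9.20), Smurf1 (8.72), Pmepa1 (7.72), Skil (6.33), Ldlrad4 (0.756) and Bambi (0.529), and the libraries of Tgif1 and Smurf1 overlapped. In WT the order ran from Ski (17.2 CPM per kb) over Tgif1 (11.2), Smurf2 (10.4), Smurf1 (8.12), Pmepa1 (2.91), Skil (2.30) and Ldlrad4 (0.615) to Bambi (0.549). Other neighbours in these orders did not overlap between their libraries. The lengths are unions of all annotated exons, so a gene whose main transcript is short is understated on this scale.

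Genes with the most similar profile were sought among 10708 genes averaging 5 CPM or more, by the distance between centred log2 (CPM + 1) values over the 6 libraries, which are 3 groups of 2 and share 1 scaling. For Pmepa1 they were Cwh43 (distance 0.337, Pearson r 0.996), Fgd3, a guanine nucleotide exchange factor (0.344, r 0.996), and Anxa1, a calcium-dependent membrane-binding annexin (0.353, r 1.00). Anxa1 was at 187 and 185 CPM in TGF-β-treated Smad4 KO, 44.5 and 43.2 CPM in Smad4 KO, and 18.5 and 18.7 CPM in WT. For Skil they were Tdrp (distance 0.135, r 0.998), Ehbp1l1 (0.229, r 0.996) and Plac8 (0.244, r 0.992). For Bambi they were Slc16a13, of the monocarboxylate transporter family (0.0831, r 0.981), Mms22l, a DNA repair factor of replication forks (0.1, r 0.974), and Atxn7l1 (0.115, r 0.961). Bambi passed in no comparison and rests on about 44 to 67 fragments per group, so its profile may be noise. The nearest 3 of 10708 genes were picked for each member, so a high r is no evidence of shared regulation.

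Genes that act on the same brakes were measured beside them. For this list and those that follow, the shares over all genes tested were 7.78% higher and 8.48% lower with TGF-β. In Smad4 KO against WT they were 16.9% and 13.4%. No list was tested as a set. Of 26 other intracellular brakes and their partners 23 were tested, and 5 rose and 2 fell with TGF-β (median log2 fold change 0.04), whereas 8 rose and 3 fell in Smad4 KO against WT (median 0.01). The 5 became 2 without TGF-β-treated Smad4 KO replicate 1 or 2 or Smad4 KO replicate 1, and 3 without Smad4 KO replicate 2 or WT replicate 1 or 2. The 2 that fell became 1 without any 1 of the 4 libraries compared, and the 3 that fell in Smad4 KO became 1 without WT replicate 2 and 6 with total-count scaling. Smad7, the inhibitory SMAD that brings Smurf ligases to the receptor, was at 26.7 and 28.5 CPM in TGF-β-treated Smad4 KO, 9.75 and 11.8 CPM in Smad4 KO, and 4.72 and 3.79 CPM in WT. It was 2.56-fold higher with TGF-β (adjusted p = 0.00244) and 2.53-fold higher in Smad4 KO compared with WT (adjusted p = 0.0016). Smad6, the inhibitory SMAD of the BMP branch, had log2 fold changes of 0.57 (adjusted p = 0.491) and -0.67 (0.332) in the same comparisons. Both values rest on the Smad4 KO libraries: without replicate 1 of Smad4 KO the log2 fold changes of Smad6 were 1.36 and -1.46, and without replicate 2 they were 0.06 and -0.16, none of them called.

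Pdlim7, a LIM protein known to bind Smurf1, was at 118 and 107 CPM in TGF-β-treated Smad4 KO, 22.9 and 22.4 CPM in Smad4 KO, and 16.6 and 14.7 CPM in WT. It was 4.97-fold higher with TGF-β (adjusted p = 4.23e-05) and 1.44-fold higher in Smad4 KO compared with WT (adjusted p = 0.00675). Peli1, another ubiquitin ligase, fell with TGF-β to 49.6 and 49.9 CPM, against 66.2 and 66.7 CPM in untreated Smad4 KO, with 43.0 and 42.2 CPM in WT. It was 1.33-fold lower with TGF-β (adjusted p = 0.00613) and 1.56-fold higher in Smad4 KO compared with WT (adjusted p = 0.000595), and all 14 alternatives called both. Rnf111 (Arkadia), the ligase that degrades SnoN, Ski and Smad7, had a log2 fold change of 0.39 with TGF-β (adjusted p = 0.0469), which did not pass without TGF-β-treated Smad4 KO replicate 1 or 2 (0.16 and 0.158), Smad4 KO replicate 1 (0.129) or WT replicate 1 or 2 (0.0851 and 0.083), nor in 3 other alternatives. Its log2 fold change in Smad4 KO against WT was -0.02 (adjusted p = 0.887), and 0.11 without Smad4 KO replicate 1.

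Of the relatives of the Smurf ligases, Nedd4l was 1.39-fold higher in Smad4 KO compared with WT (adjusted p = 0.00172) and had a log2 fold change of -0.11 with TGF-β (adjusted p = 0.267). Wwp1 fell by 0.40 on the log2 scale in Smad4 KO against WT (adjusted p = 0.00974) and by 0.35 with TGF-β (adjusted p = 0.0272). The second call was lost without any 1 of the 4 libraries compared (adjusted p = 0.0677 and 0.14 without TGF-β-treated Smad4 KO replicates 1 and 2, 0.0681 and 0.119 without Smad4 KO replicates 1 and 2), and the first without Smad4 KO replicate 1 (0.0539) or WT replicate 2 (0.0585). Tgif2, the paralog of Tgif1, was at 6.62 and 13.5 CPM in TGF-β-treated Smad4 KO, 18.9 and 10.8 CPM in Smad4 KO, and 40.7 and 48.2 CPM in WT. It was 3.0-fold lower in Smad4 KO compared with WT (adjusted p = 0.022), a call lost without Smad4 KO replicate 2 (0.0951), WT replicate 1 (0.0632) or WT replicate 2 (0.0918), and 61.6% of its exons overlap another gene, which makes the value uncertain.

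The list of family relatives shares Tgif2, Nedd4l, Wwp1, Wwp2, Itch and Nedd4 with the other intracellular brakes, so calls of these genes are counted in both lists. Of 26 relatives 16 were tested. With TGF-β 2 rose and 2 fell (median log2 fold change 0.01), and 4 rose and 5 fell in Smad4 KO against WT (median -0.15). The 2 that rose became 0 or 1 without any 1 of the 6 libraries, and the 2 that fell became 1 without any 1 of the 4 libraries compared. The 4 that rose became 2 without Smad4 KO replicate 1 or 2 or WT replicate 1, and the 5 that fell became 3 without these and 2 without WT replicate 2. Among all genes tested 7.78% were higher and 8.48% lower with TGF-β, and 16.9% and 13.4% in Smad4 KO against WT. Of 17 corepressor complex partners 15 were tested, with 1 higher and 0 lower with TGF-β (median 0.09). In Smad4 KO against WT 2 were higher and 4 lower (median -0.07). The 1 higher with TGF-β became 0 without TGF-β-treated Smad4 KO replicate 2 or Smad4 KO replicate 1, 2 without WT replicate 1 or 2 and 3 with total-count scaling or in DESeq2, and without Smad4 KO replicate 2 there was also 1 lower. The 4 lower became 2 without Smad4 KO replicate 2 or WT replicate 1 or 2.

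Of 17 secreted antagonists 9 were tested, and Nog, Chrdl1, Chrdl2, Sostdc1 and Dcn were among those at 0 in all libraries. In Smad4 KO against WT 3 rose and 0 fell (median log2 fold change 0.29). Ltbp1 was among the 3, at 5 and 26 units in Smad4 KO and 0 and 0 units in WT. The median was the value of Chrd (0.29 ± 2.21 SE), at 13 and 0 units in Smad4 KO and 0 and 12 units in WT. With TGF-β 2 rose and 0 fell (median 1.06). The 2 became 1 without TGF-β-treated Smad4 KO replicate 1 or 2 or Smad4 KO replicate 2. Nbl1, which binds BMP ligands, was 2.09-fold higher with TGF-β (adjusted p = 0.0109) and 2.76-fold higher in Smad4 KO compared with WT (adjusted p = 0.00207). The first of these calls was lost without TGF-β-treated Smad4 KO replicate 1 (0.0689) or Smad4 KO replicate 2 (0.0538). Fstl1, a follistatin-related glycoprotein, was 3.38-fold higher with TGF-β (adjusted p = 0.011, and 0.0676 without TGF-β-treated Smad4 KO replicate 2) and 7.27-fold higher in Smad4 KO compared with WT (adjusted p = 0.00155), with 21 and 16 units in the WT libraries.

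Of 18 receptors and SMADs 16 were tested. With TGF-β 3 rose and 0 fell (median log2 fold change 0.03), and in Smad4 KO against WT 1 rose and 4 fell, Smad4 among them (median -0.12). The 3 became 1 without TGF-β-treated Smad4 KO replicate 1 or Smad4 KO replicate 1, 1 receptor or SMAD fell without WT replicate 1 or 2, and in Smad4 KO against WT 2 rose and 2 fell without WT replicate 2. Tgfbr2, the ligand-binding TGF-β receptor, was 1.47-fold higher with TGF-β (adjusted p = 0.000427) and 1.29-fold lower in Smad4 KO compared with WT (adjusted p = 0.00122). Smad3, which the membrane adaptors and corepressors bind, was 1.39-fold higher in Smad4 KO compared with WT (adjusted p = 0.00375) and 1.28-fold higher with TGF-β (adjusted p = 0.0183), the second lost without TGF-β-treated Smad4 KO replicates 1 and 2 (0.103 and 0.0682) and Smad4 KO replicates 1 and 2 (0.09 and 0.0588). Of 19 ligands 14 were tested, with 2 higher and 2 lower with TGF-β (median 0.30) and 1 higher and 4 lower in Smad4 KO against WT (median -0.25, and -0.22 with 1 gene at 0 in a group set to its bound and 1 under the floor of 12 units in both groups left out). The 2 higher became 1 without TGF-β-treated Smad4 KO replicate 2, the 4 lower became 2 without Smad4 KO replicate 1 or WT replicate 2, and the 1 higher became 2 without WT replicate 2.

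Other genes known as SMAD targets are effectors and not brakes. Of 27 symbols 25 were in the table and 22 were tested, and 10 rose and 1 fell with TGF-β (median log2 fold change 0.36, and 0.24 with 1 gene at 0 in a group set to its bound against a floor of 12 units over the group and 1 under that floor in both groups left out), while 7 rose and 2 fell in Smad4 KO against WT (median 0.22). The 1 became 0 without TGF-β-treated Smad4 KO replicate 2 or Smad4 KO replicate 1 or 2, the 7 became 4 without Smad4 KO replicate 2 or WT replicate 1, and the 2 became 1 without these and 0 without WT replicate 2. Among the 7 that rose in Smad4 KO against WT, Fn1 had only 12 and 24 units in Smad4 KO and 0 and 4 units in WT. Thbs1, a matrix glycoprotein that can activate latent TGF-β, was 2.13-fold higher with TGF-β (adjusted p = 0.000135) and 2.48-fold higher in Smad4 KO compared with WT (adjusted p = 2.91e-05). Cdkn2b, an inhibitor of cyclin-dependent kinases, was at 97.7 and 96.0 CPM in TGF-β-treated Smad4 KO, 96.4 and 99.5 CPM in Smad4 KO, and 25.4 and 25.1 CPM in WT. Its log2 fold change was 1.96 in Smad4 KO against WT (adjusted p = 4.62e-06) and -0.02 with TGF-β (adjusted p = 0.898), where total-count scaling gave 0.03 and the fit without Smad4 KO replicate 2 gave 0.01.

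**Figure D4:**
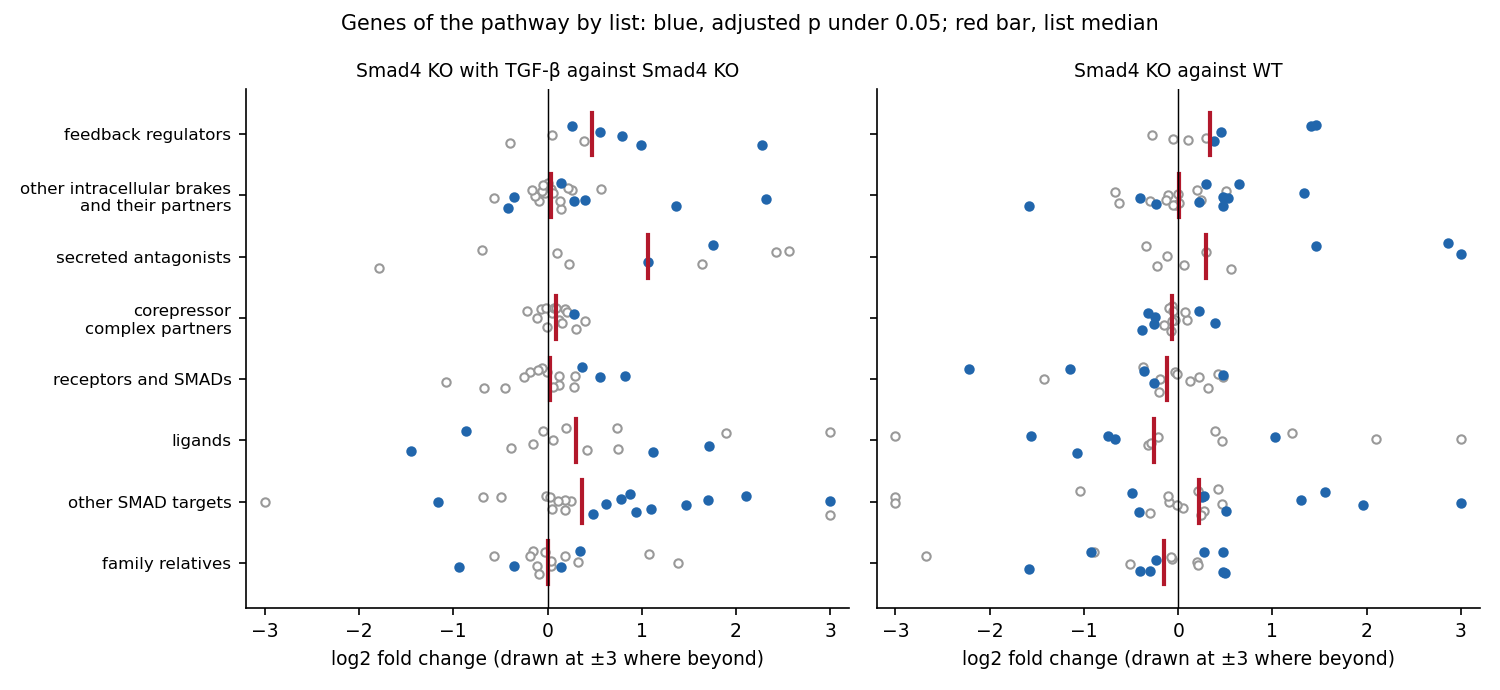
Log2 fold change (horizontal axis, values beyond -3 or 3 drawn there) of every tested gene in the feedback regulators and in 7 other lists of the pathway, for TGF-β-treated Smad4 KO against Smad4 KO on the left and Smad4 KO against WT on the right; blue points passed at an adjusted p under 0.05, open points did not, and red bars are list medians. The feedback regulators have medians of 0.47 and 0.34, and the corepressor partners medians of 0.09 and -0.07. Tgif2, Nedd4l, Wwp1, Wwp2, Itch and Nedd4 are drawn both among the other intracellular brakes and among the family relatives.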

How the data were processed

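RNA-seq libraries of mouse intestinal organoids were grouped by their titles. The values are estimated counts per Ensembl gene that the authors deposited as whole numbers. The submitters' processing notes name StringTie 1.3.3b, HISAT2 2.1.0, SAMtools 1.9, FastQC 0.11.9 and the build GRCm38; annotation release, strand setting and how values became whole were not given in the sources used here. Multiples of 4 made up 42.3% of the values between 1 and 24 (an even spread gives 25%), so 1 fragment was taken to add about 4 units; fragment numbers rest on this inference. Counts were not rounded further. Symbols came from GENCODE vM21 (97 of 31227 genes had none), as did positions and exon lengths.

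Genes were filtered with filterByExpr and scaled by TMM, and edgeR 4.0.16 (R 4.3.3) was fitted to all 6 libraries with group as the only term and 3 residual degrees of freedom. Intervals are 95% intervals of the fitted fold. Alternatives were other scalings, DESeq2 1.42.0, no filter, 4 libraries, values divided by 4, a replicate block and leaving out each library. The members, lists and tests were chosen with earlier results of these data known, so they are no independent evidence. All 8 members are described, from each list up to 4 genes with the smallest adjusted p per comparison were eligible, and Smad6, Smad7, Tgif2, Nedd4l, Wwp1 and Rnf111 were named whatever they did. A few eligible genes are not reported here.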

Additional observations from a re-analysis of the deposited data

How the results depend on the processing

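Of 336 recomputed fold changes of the 8 genes (3 comparisons, 14 alternatives), 309 kept their direction and their side of the threshold, 8 no longer passed, 17 newly passed and 2 changed sign. The number of genes called was 5 with TGF-β, between 2 and 5 when 1 library was left out and 5 or 6 in the other alternatives; it was 4 or 5 in Smad4 KO against WT and 6 or 7 in TGF-β-treated Smad4 KO against WT. Leaving out 1 library gave log2 fold changes in Smad4 KO against WT of -0.16 to 0.045 for Bambi (0.045 without Smad4 KO replicate 1) and of -0.0101 to 0.21 for Smurf1 (-0.0101 without Smad4 KO replicate 2), neither called. Among other genes, the sign changed for Cdkn2b with TGF-β (0.0317 with total counts, -0.0388 to 0.0076 with a library left out, the highest without Smad4 KO replicate 2), Rnf111 in Smad4 KO against WT (-0.17 to 0.11, the highest without Smad4 KO replicate 1) and Smad6 in TGF-β-treated Smad4 KO against WT (-0.28 to 0.11, with 0.03 without TGF-β-treated Smad4 KO replicate 1 and 0.11 without WT replicate 1), and the cause was not tested. Of 588 counts over the pathway lists, 108 moved by more than 1.5 times. Besides those already given, DESeq2 called higher 4 secreted antagonists and 4 ligands with TGF-β, and 4 ligands and 2 receptors or SMADs in Smad4 KO against WT. Other SMAD targets called lower in Smad4 KO against WT were 4 in DESeq2, with total counts, with upper quartile scaling and with values divided by 4, and relatives called higher were 2 with total counts. The groups share replicate numbers, but nothing in the labels ties equal numbers together, and differences between replicates 1 and 2 correlated across genes at only 0.03 (treated and untreated Smad4 KO), 0.02 (treated Smad4 KO and WT) and -0.03 (Smad4 KO and WT). With a replicate block the numbers called were 5 with TGF-β, 5 in Smad4 KO against WT (Tgif1 lower, adjusted p = 0.036) and 7 in TGF-β-treated Smad4 KO against WT. With 2 libraries per group, a library left out leaves 1, which is assumed to vary like the other groups. Depth limits Bambi and Ldlrad4.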
